A study of Homo sapiens with 4 samples.

Results

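The genes described here are 177 genes whose RNA was higher than in control cells in A2780s clones labelled GALNT3 KO and lower than in control cells in clones labelled GALNT3/T6 KO. The genes were chosen by their measured ratios: a gene was included when at least 1 of its probes had a KO over Ctrl ratio at least 1.5-fold above the array median on both GALNT3 KO arrays and at least 1.5-fold below it on both GALNT3/T6 KO arrays, with the Ctrl channel well above background on all 4. This rule was met by 177 of the 25323 genes with a measurable Ctrl signal (0.699%), through 195 of 41000 probes. For comparison of size, 234 genes had the opposite pattern, 409 were higher in both groups and 681 were lower in both. Because the rule used the ratios of all 4 arrays, the values of the 177 genes are given as a description. How many of them passed in a fit of all genes is given below, and nothing is read from those counts.

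A2780s is a human epithelial ovarian cancer line. GALNT3 KO replicates 1 and 2 were clones in which GALNT3 had been disrupted with CRISPR-Cas9. GALNT3/T6 KO replicates 1 and 2 were GALNT3 KO clones that also carried an shRNA against GALNT6. Ctrl stands for mock-transfected cells of the same line. The paper speaks of corresponding Ctrls in the plural, so it is not established that both groups shared a single Ctrl clone. Each of the 4 arrays, all on 1 slide, held the KO RNA in the red channel and the Ctrl RNA in the green channel, with no dye swap in the labels, so dye and genotype cannot be told apart. The shRNA went with the double knockout only, each group had 2 arrays, and no Ctrl sample was hybridized against another, so the spread of Ctrl itself is not part of any error given here.

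The targeted genes were read first. The GALNT3 probe gave log2 KO over Ctrl ratios of 0.13 and 0.24 on the GALNT3 KO arrays, where neither channel was well above background, and of 4.80 and 5.08 on the 2 GALNT3/T6 KO arrays. GALNT3 RNA was thus read as high in clones whose label says that GALNT3 was disrupted, and GALNT3/T6 KO below stands for the arrays that carry this label. GALNT6 gave -0.47 and -0.38 in GALNT3 KO and -0.66 and -0.69 in GALNT3/T6 KO. Of the markers of an epithelial line, EPCAM, KRT8, KRT18, KRT19 and PAX8 were well above background on all 4 arrays, and CDH1 and KRT7 on 3. Of the endothelial markers PECAM1 was so on 0 arrays and CDH5, VWF and KDR on all 4, as were the blood markers CD3E and CD14, so this call does not separate cell types here. KRT18 gave ratios of 5.41 and 5.95 and KRT19 of 4.31 and 5.32 on the GALNT3/T6 KO arrays, and both lay between 0.40 and 0.74 on the GALNT3 KO arrays. The Ctrl channel of these keratins was itself brighter there: its log2 signal was 10.6 and 10.3 on the GALNT3 KO arrays and 13.4 and 12.6 on the GALNT3/T6 KO arrays for KRT18, and 11.4 and 11.1 against 14.4 and 13.2 for KRT19. The part of these differences in the results below was not tested.

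GALNT3 and GALNT6 encode polypeptide GalNAc-transferases, the enzymes that add the first sugar of mucin-type O-glycans to serine and threonine residues of secreted and membrane proteins. These enzymes act in the Golgi and overlap in the substrates they accept. The 177 genes are not a known pathway: they include growth factor and cytokine ligands, receptors, protease inhibitors, matrix proteins, enzymes of lipid mediators, transcription factors and histones.

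All values below are log2 ratios of KO over Ctrl after background correction and loess normalization, so that 1 is a 2-fold difference. On this scale all 177 genes lay above 0 in GALNT3 KO and below 0 in GALNT3/T6 KO. The rule used the same spots and largely fixes these signs. At the rule's threshold, 139 of the 177 still passed on this scale. With the scanner software's own log ratio (Feature Extraction) 129 did. Their means ran from 0.42 to 3.49 in GALNT3 KO (median 0.94) and from -4.68 to -0.38 in GALNT3/T6 KO (median -1.32). The distance from Ctrl was larger in GALNT3/T6 KO for 126 genes. 35 genes were at least 2-fold from Ctrl on each array, 14 were at least 4-fold higher on both GALNT3 KO arrays, and 17 were at least 8-fold lower on both GALNT3/T6 KO arrays. The median gap between the 2 arrays of a group was 0.19 in GALNT3 KO and 0.23 in GALNT3/T6 KO. The rule asks both arrays to pass the same threshold, which favours a small gap. It was not set against the gap over all genes, and nothing is read from it.

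**Figure D1:**
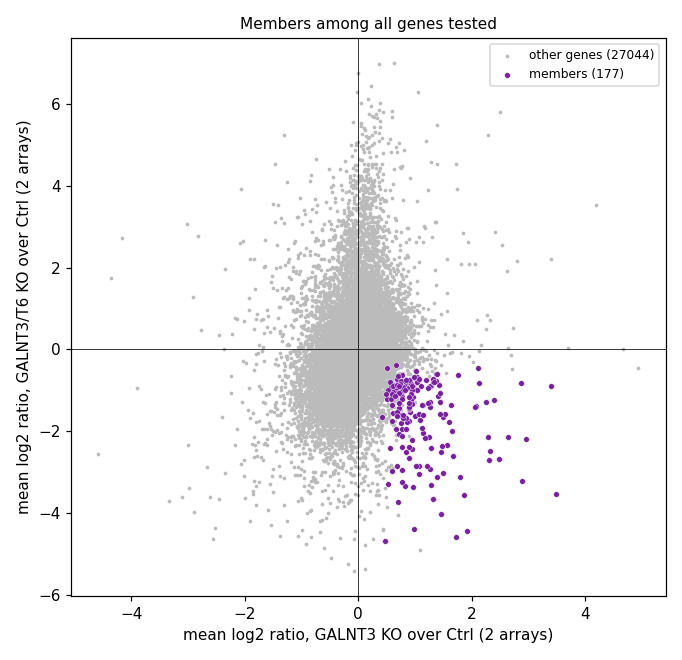
Mean log2 KO over Ctrl ratio in GALNT3 KO against that in GALNT3/T6 KO, with the 177 genes (purple, named members in the plot) among 27044 other genes (grey). The marked genes lie in the quadrant that the rule selects, with GALNT3 KO means from 0.42 to 3.49 and GALNT3/T6 KO means from -4.68 to -0.38.

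The gene with the widest separation was FAM9C, a testis-expressed gene on the X chromosome. Its ratios were 3.49 and 3.49 in GALNT3 KO and -3.35 and -3.75 in GALNT3/T6 KO, and all 3 of its probes met the rule. The sequences of the array probes are shown for 5 genes, as they define which transcript was read; coordinates are hg19, and a span above 60 bases means that the probe crosses an exon junction. The FAM9C probe lies on the minus strand of chrX:13058982-13061264, that of HGF on the minus strand of chr7:81381526-81386511, that of VIM on the plus strand of chr10:17278347-17279256, that of FOLH1 on the minus strand of chr11:49196475-49197415, and that of TIMP1 on the plus strand of chrX:47444666-47444725.
FAM9C: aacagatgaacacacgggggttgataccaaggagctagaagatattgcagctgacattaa
HGF: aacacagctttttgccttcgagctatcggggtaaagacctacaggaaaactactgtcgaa
VIM: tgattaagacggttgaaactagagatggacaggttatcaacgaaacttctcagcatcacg
FOLH1: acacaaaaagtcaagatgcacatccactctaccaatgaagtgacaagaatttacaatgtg
TIMP1: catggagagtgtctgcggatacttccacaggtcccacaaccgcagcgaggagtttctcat

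Among ligands, HGF, the secreted factor that activates the MET receptor, gave 1.01 and 1.14 in GALNT3 KO and -2.84 and -2.87 in GALNT3/T6 KO. The HGF probe printed above, present in 10 spots per array, gave 1.00, 1.41, -3.05 and -3.16 in the same order, with an SD among spots of 0.27 to 0.30. Both of these probes met the rule, which fixes their separation. The third HGF probe, which did not meet it, gave 0.59 and 0.25 in GALNT3 KO and -4.31 and -4.55 in GALNT3/T6 KO. NELL2, a secreted neuronal glycoprotein, gave 1.15, 1.43, -2.36 and -2.48, and CXCL10, an interferon-induced chemokine, gave 1.08, 1.47, -1.27 and -1.58. Over the 6 ligands and hormones, a group put together after the values were seen, like the other role groups, the GALNT3 KO means had a median of 1.09 and the GALNT3/T6 KO means one of -1.58.

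**Figure D2:**
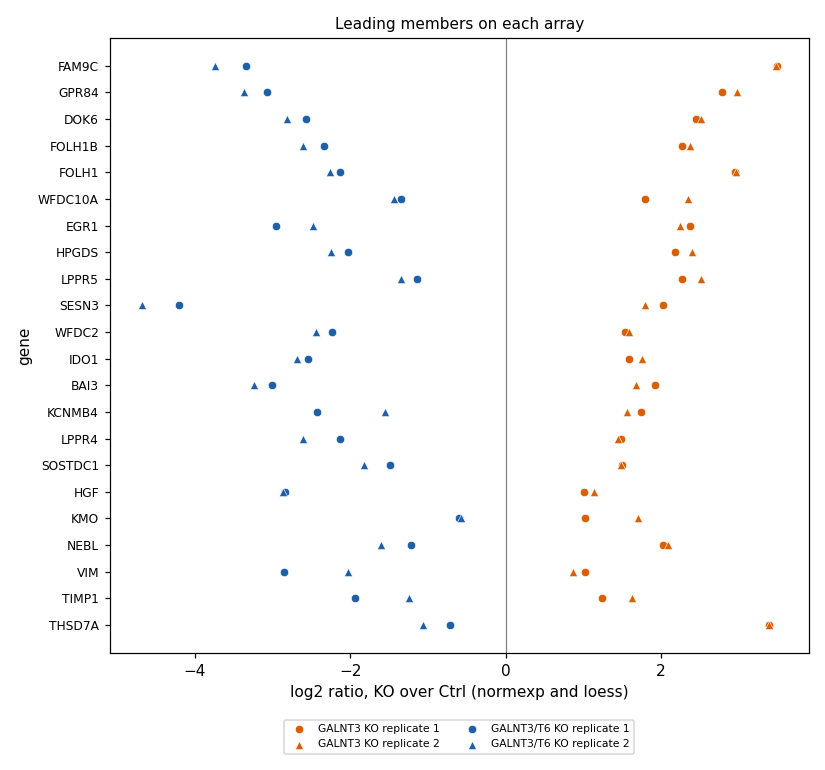
Log2 KO over Ctrl ratio on each array for the 20 highest-ranked genes with a symbol and for TIMP1 and THSD7A; orange marks GALNT3 KO and blue GALNT3/T6 KO, with circles for replicate 1 and triangles for replicate 2. The rule asks both arrays of a group to pass, which favours a small distance between them. KMO (-0.61 and -0.58) lies nearest to 0 in GALNT3/T6 KO.

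Receptors and their adaptors spanned the widest range in GALNT3/T6 KO. GPR84, a receptor for medium-chain fatty acids, gave 2.79 and 2.98 in GALNT3 KO and -3.07 and -3.37 in GALNT3/T6 KO. CALCRL, the receptor subunit for adrenomedullin and CGRP, gave 1.46, 1.18, -3.34 and -3.99 in the same order. DOK6, an adaptor of receptor tyrosine kinases, gave 2.45, 2.51, -2.57 and -2.81; its KO signal was not well above background on 1 GALNT3/T6 KO array, so that its ratio there is not exact. CCKBR, the gastrin receptor, gave 0.98, 1.94, -2.28 and -2.74, and its GALNT3 KO arrays stood further apart than those of the receptors named before it. HTR2B, a serotonin receptor, gave 0.78, 1.25, -2.77 and -2.94. RGS18, a regulator of G protein signalling, gave 2.93, 2.81, -0.61 and -1.02, the larger distance being in GALNT3 KO. GHR, the growth hormone receptor, gave 0.73, 0.79, -1.73 and -1.88, and its second probe 0.17, 0.06, -0.47 and -0.50. ERBB4, the receptor of neuregulins, gave 0.59, 0.56, -0.89 and -0.96, but its other probe gave -0.08, -0.51, -2.99 and -3.35, below 0 in GALNT3 KO too. SUCNR1, the succinate receptor, gave 1.40, 1.36, -0.68 and -0.55.

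Secreted inhibitors came next. TIMP1, an inhibitor of matrix metalloproteinases, gave 1.24 and 1.63 in GALNT3 KO and -1.94 and -1.24 in GALNT3/T6 KO. WFDC2, the whey-acidic-protein domain protein known as the ovarian cancer marker HE4, gave 1.54, 1.58, -2.24 and -2.45, and its second probe gave 1.37, 1.64, -1.15 and -1.33. WFDC10A, a relative on the same chromosome, gave 1.79 and 2.35 in GALNT3 KO and was not well above background in the KO channel of either GALNT3/T6 KO array, where it was at least 1.89-fold lower than Ctrl. SOSTDC1, a secreted antagonist of BMP and Wnt signalling, gave 1.51, 1.48, -1.49 and -1.82.

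In the matrix group, THSD7A, a membrane protein with thrombospondin repeats, was nearly as high as FAM9C in GALNT3 KO, at 3.39 and 3.40. It gave -0.72 and -1.06 in GALNT3/T6 KO. Over all THSD7A probes the mean was 2.55 in GALNT3 KO and -0.56 in GALNT3/T6 KO. Its KO signal was not well above background on 1 GALNT3/T6 KO array, and its Ctrl signal was itself lower by 1.02 on the GALNT3/T6 KO arrays (a log2 difference of -1.02). ITGAV, the integrin subunit alpha V, gave 0.87, 0.82, -1.68 and -2.23, and its second probe 0.25, 0.27, -1.60 and -2.21. BGN, the proteoglycan biglycan, gave 0.77, 1.30, -0.80 and -1.21, and MMP16, a membrane-bound metalloproteinase, gave 1.02, 0.76, -0.68 and -0.80. The other MMP16 probes did not fall below 0 in GALNT3/T6 KO, at 0.01 and 0.05 for one and 0.49 and 0.49 for the other.

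VIM, the mesenchymal intermediate filament vimentin, gave 1.02 and 0.87 in GALNT3 KO and -2.86 and -2.03 in GALNT3/T6 KO. Its second probe gave 1.11, 1.12, -2.84 and -1.87. The GALNT3 KO mean of the first probe was 0.94 after loess, 1.65 on the rule's own scale and 0.32 with the Feature Extraction log ratio. Its GALNT3/T6 KO means were -2.44, -1.64 and -2.81 in the same order. The Ctrl signal of VIM was higher by 1.41 on the GALNT3/T6 KO arrays than on the GALNT3 KO arrays, the largest such rise among the 177 genes, while its KO signal differed by -1.97. The part of this Ctrl difference in the VIM ratio was not tested. The other mesenchymal markers went both ways: FN1 gave 0.01, 0.09, 3.21 and 3.90, CDH2 lay between 2.18 and 2.89 on all 4 arrays, LUM lay between -1.21 and -1.02 on all 4, and COL3A1 gave 0.14, -0.04, -1.48 and -0.48.

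Across the 177 genes the separation between the groups was larger in the KO channel than in the Ctrl channel. Both channels are part of the ratio that the rule used, so this is a description and was not tested. The KO signal differed between GALNT3/T6 KO and GALNT3 KO arrays by a median of -2.54 (log2), against -0.15 over all probes, and was lower on both GALNT3/T6 KO arrays than on both GALNT3 KO arrays for all 177. The Ctrl signal differed by a median of -0.17, against -0.08 over all probes, and by more than 0.5 in either direction for 22 genes. It differed by more than 1 for 3 genes, VIM, THSD7A and S100A1 (-1.16).

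**Figure D3:**
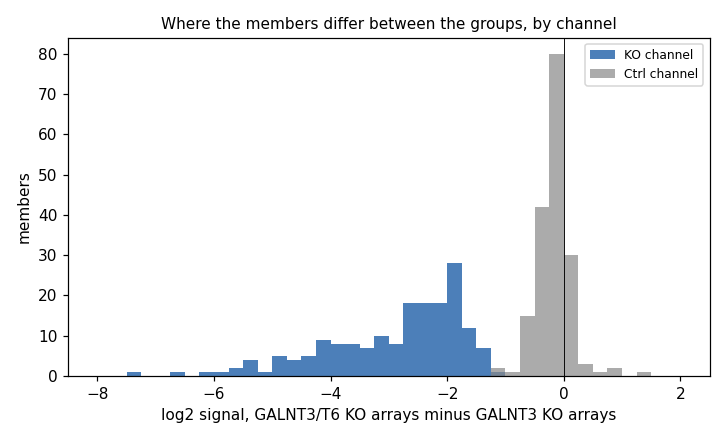
Difference in log2 signal between GALNT3/T6 KO and GALNT3 KO arrays in the KO channel and in the Ctrl channel, as counts of the 177 genes (members in the plot). The KO differences have a median of -2.54 and the Ctrl differences one of -0.17, with VIM the highest Ctrl difference at 1.41.

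Enzymes of 2 signalling-lipid and amino acid pathways were among the genes. HPGDS, which makes prostaglandin D2, gave 2.18 and 2.40 in GALNT3 KO and -2.04 and -2.26 in GALNT3/T6 KO. PLA2G4A, the cytosolic phospholipase that frees arachidonic acid, gave 1.65, 1.12, -3.06 and -3.19, with an SD of 0.24 to 0.32 among its 10 spots. PTGS2, the inducible cyclooxygenase, gave 1.41, 1.12, -0.80 and -0.97, and its second probe gave 1.66, 1.36, -0.58 and -0.73. On 1 GALNT3/T6 KO array the KO signal of PTGS2 was not well above background, so that its ratio there is not exact. IDO1, which opens the tryptophan ring at the start of the kynurenine pathway, gave 1.59, 1.75, -2.55 and -2.68. KMO, the hydroxylase further down that pathway, gave 1.03 and 1.70 in GALNT3 KO and was not well above background in the KO channel in GALNT3/T6 KO (at least 1.42-fold lower), and its brightest probe gave a mean of 0.28 in GALNT3/T6 KO, on the other side of 0.

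EGR1, a zinc finger transcription factor of the immediate-early response, gave 2.37 and 2.25 in GALNT3 KO and -2.95 and -2.48 in GALNT3/T6 KO. EGR3, of the same family, gave 1.37, 1.19, -0.81 and -0.97. SPRY4, a feedback inhibitor of receptor tyrosine kinase signalling, gave 1.31, 1.17, -2.16 and -2.11. Over the 5 immediate-early and feedback genes, which also hold ID2 and BTG2, the medians were 1.24 and -1.16. RARB, the retinoic acid receptor beta, gave 1.01 and 1.27 in GALNT3 KO and was at least 3.71-fold lower than Ctrl in GALNT3/T6 KO, where its KO signal was not well above background.

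The promoters of EGR1 and PTGS2 are shown because both genes belong to the rapidly induced kind and hold named elements close to the start. The sequences are the 250 bases before the RefSeq start in GRCh38.p14, for EGR1 the plus strand of chr5:138465229-138465478 and for PTGS2 the minus strand of chr1:186680424-186680673. Capitals mark the CArG boxes and the short CRE motif (TGACG, either strand) of EGR1, and the CCAAT box, short CRE motif and TATA box (TATAAA) of PTGS2.
EGR1: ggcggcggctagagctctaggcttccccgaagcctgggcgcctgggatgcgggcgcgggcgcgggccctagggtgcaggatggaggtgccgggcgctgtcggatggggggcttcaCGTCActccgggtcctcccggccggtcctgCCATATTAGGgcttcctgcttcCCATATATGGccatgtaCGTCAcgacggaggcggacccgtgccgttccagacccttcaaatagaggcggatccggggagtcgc
PTGS2: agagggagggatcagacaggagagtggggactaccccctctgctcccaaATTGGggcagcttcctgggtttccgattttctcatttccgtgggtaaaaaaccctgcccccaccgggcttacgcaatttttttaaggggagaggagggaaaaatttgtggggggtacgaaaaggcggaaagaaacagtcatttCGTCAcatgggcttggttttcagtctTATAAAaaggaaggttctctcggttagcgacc
Promoters were found for 113 of the 177 genes, 171 in all. On either strand, TATAAA stood in 14.04% of them against 10.72% of 35116 promoters, CCAAT in 36.8% against 32.0%, the GC box GGGCGG in 39.2% against 42.6%, TGACG in 21.1% against 21.2%, and a CArG box in 1.75% against 1.16%. These shares are a description of the letters in the window and were not tested.

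Adhesion and guidance molecules of neurons formed another group of 9, with medians of 0.95 in GALNT3 KO and -1.68 in GALNT3/T6 KO. NLGN1, a postsynaptic neuroligin, gave 0.87, 1.06, -3.15 and -3.58. CDH10, a cadherin, gave 1.35, 1.20, -3.20 and -3.45. BAI3, an adhesion G protein-coupled receptor now named ADGRB3, gave 1.92, 1.68, -3.01 and -3.24. LPPR4 and LPPR5, lipid phosphatase-related membrane proteins now named PLPPR4 and PLPPR5, gave 1.49 and 1.45 and 2.28 and 2.52 in GALNT3 KO. In GALNT3/T6 KO, LPPR4 gave -2.14 and -2.62 and LPPR5 was at least 2.16-fold lower than Ctrl, not well above background in the KO channel.

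FOLH1, the glutamate carboxypeptidase known as prostate-specific membrane antigen, gave 2.96 and 2.96 in GALNT3 KO and -2.13 and -2.26 in GALNT3/T6 KO. The FOLH1 probe printed above gave 1.46, 1.52, -0.77 and -1.03. FOLH1B, a near copy of FOLH1, gave 2.27, 2.37, -2.34 and -2.62, with its KO signal not well above background on 1 GALNT3/T6 KO array; the 2 genes' probes share at most 7 bases in a row, but the transcripts are so alike that their signals are uncertain as separate readings. SESN3, a stress-induced sestrin, gave 2.02 and 1.79 and then -4.21 and -4.69, while its other 2 probes ran from 0.46 to 0.93 in GALNT3 KO and from -0.74 to -0.65 in GALNT3/T6 KO. KCNMB4, a subunit of the BK potassium channel, gave 1.74, 1.56, -2.42 and -1.55, and its second probe 0.44, 0.43, -0.50 and -0.44. NEBL, the actin-binding nebulette, gave 2.03, 2.09, -1.22 and -1.61, but its second probe gave 1.09, 0.78, 0.09 and -0.05.

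Channels, carriers and developmental regulators were among the genes too, at shares given here beside that of all genes. The 177 made up 0.65% of all genes tested, 1.11% of the ion channels and 0.62% of the solute carriers. They made up 1.54% of the homeobox genes and 5.26% of the p53 targets. Of 271 ion channel genes 3 were among the 177: besides KCNMB4, TRPM3, a cation channel, gave 0.85, 1.12, -0.99 and -0.96, and SCN3A, a voltage-gated sodium channel, gave 0.57, 0.86, -0.82 and -0.97. Of 324 solute carriers there were 2, SLC16A9 of the monocarboxylate transporter family at 1.47, 1.33, -1.12 and -1.16, and SLC30A8, a zinc transporter, at 1.66, 1.85, -0.64 and -0.64. In GALNT3/T6 KO both lists went both ways, with 73 ion channel genes called higher and 41 lower than Ctrl, and 101 solute carriers higher and 64 lower, where 24.8% of all genes were higher and 23.1% lower. The second SCN3A probe gave 0.10, 0.19, 0.15 and -0.01. Of 130 homeobox genes there were HOXD3 (1.34, 1.30, -0.78 and -0.83) and HOXB5 (0.66, 0.77, -1.94 and -2.20), which pattern the body axis in development; the second HOXD3 probe gave 0.87, 0.13, -2.44 and -2.16. Of 38 p53 target genes there were MDM2, the ubiquitin ligase that degrades p53 (1.14, 0.74, -0.93 and -0.87), and BTG2, an antiproliferative gene (0.94, 0.71, -1.04 and -0.95). Of the 4 MDM2 probes only that 1 met the rule: the brightest gave 0.50, 0.41, 0.17 and 0.44, and the probe with 10 spots gave 0.06, 0.15, 0.11 and 0.01. The 36 genes of the p53 list outside the 177 had medians of 0.19 and -0.41, and limma called 13 of them lower and 9 higher in GALNT3/T6 KO than in GALNT3 KO, where 11.9% and 11.8% of all genes were. None of the 32 genes of cholesterol and fatty acid synthesis was among the 177. Nothing is read from this, given the share of 0.65% over all genes.

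Of the 177 genes, 151 carry a gene symbol and 26 do not. The KO signal was well above background on both GALNT3 KO arrays for all of them, whereas in GALNT3/T6 KO it was not so on either array for 16 genes and on 1 array for 11. Of the 85 genes with several probes, 16 had more than 1 that met the rule. Among 113 other probes of these genes with a measurable Ctrl signal, 51 (45.1%) had the same signs on all 4 arrays, against 8.55% of the 35231 such probes on the array. The probes of 1 gene share its RNA and are not replicates.

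The 9 H2B histone genes had medians of 0.90 in GALNT3 KO and -1.31 in GALNT3/T6 KO. HIST1H2BK gave 0.58, 0.52, -2.18 and -2.65, and HIST1H2BH gave 1.07, 1.20, -1.22 and -1.51. H2B genes are near copies of each other: 3 of the 36 pairs of their probes share a run of at least 20 bases, up to 31, so these genes may share signal. The 53 clustered histone genes that are not among the 177 had medians of 0.12 and -0.11, against 0.02 and 0.03 over all 27221 genes. Of these 53, 14 were lower and 1 higher in GALNT3/T6 KO than in GALNT3 KO at an adjusted p of at most 0.05 (limma), where 11.9% of all genes were lower and 11.8% higher.

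The 6 translation genes were the least raised, with a GALNT3 KO median of 0.68. EEF2, the elongation factor that moves the ribosome along, gave 0.40, 0.43, -2.01 and -1.31, and RPL3, a protein of the large subunit, gave 0.32, 0.69, -1.22 and -1.19. The 82 ribosomal protein genes as a whole had medians of 0.72 in GALNT3 KO and 0.39 in GALNT3/T6 KO. The RPL3 and RPL22 probes that met the rule stood on the other side of 0 from that median in GALNT3/T6 KO. Other RPL3 probes gave 1.02, 1.21, -0.57 and -0.09, and 0.74, 1.05, -0.86 and -0.24. On the rule's own scale these gave 0.32 and 0.65, and -0.02 and 0.48, in GALNT3/T6 KO. Other RPL22 probes were not raised in GALNT3 KO, at -0.0008 and 0.06, and at -0.26 and -0.41.

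GALNT4, itself a GalNAc-transferase, was the 1 member of its family among the 177. Its 2 probes gave 1.04 and 0.97 and 0.94 and 1.00 in GALNT3 KO, and -1.62 and -1.67 and -2.66 and -2.59 in GALNT3/T6 KO. GALNT7 was not among them but was higher in GALNT3 KO at 1.67 and 1.14 (adjusted p = 0.0232, limma) and lower in GALNT3/T6 KO at -0.45 and -0.71 (adjusted p = 0.0367). Its GALNT3 KO call was lost without either GALNT3 KO array, with the replicate block and with the Feature Extraction ratios (adjusted p up to 0.371), and its GALNT3/T6 KO call without GALNT3/T6 KO replicate 2 (0.0757). The difference between the groups was -1.99 for GALNT7 (adjusted p = 0.00532, limma), a call lost without GALNT3 KO replicate 1 (0.0562). GALNT1 differed by -0.73 (adjusted p = 0.019), a call lost without either GALNT3 KO array and with the replicate block (up to 0.157).

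**Figure D4:**
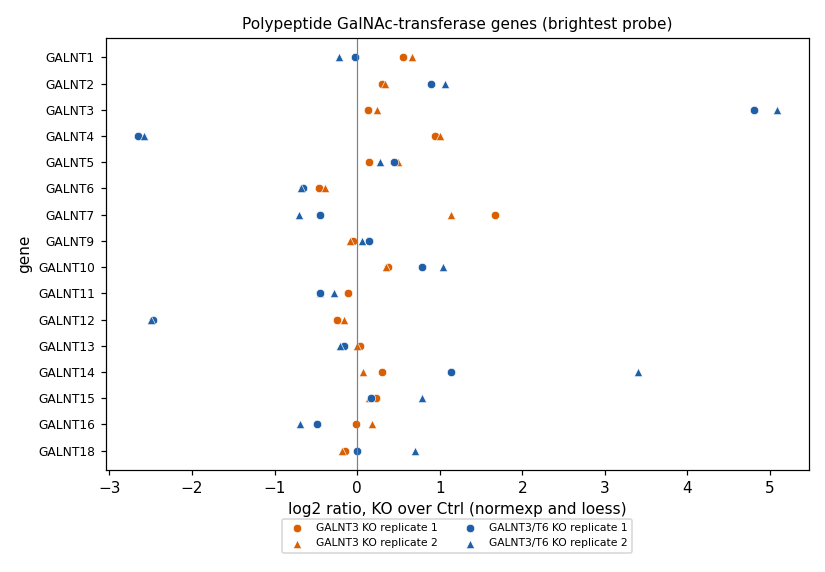
Log2 KO over Ctrl ratio of each GalNAc-transferase on the 4 arrays. GALNT4, GALNT7 and GALNT1 lie above 0 in GALNT3 KO and below 0 in GALNT3/T6 KO, GALNT1 by little there (-0.03 and -0.22). GALNT3 reaches 4.80 and 5.08 on the GALNT3/T6 KO arrays.

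The lists to which HGF and TIMP1 belong were read without the members. Of 23 HGF and MET genes outside the 177, 5 were called higher and 0 lower in GALNT3/T6 KO than in GALNT3 KO, where 11.8% and 11.9% of all genes were. The largest differences were those of PLAU, the urokinase that can activate HGF, at 3.64 (SE 0.205, adjusted p = 0.000908, limma), and of SPINT2, an inhibitor of HGF activation, at 2.80 (adjusted p = 0.00143). MET itself differed by 0.92 (adjusted p = 0.00755), a call lost when either GALNT3 KO array was left out (adjusted p up to 0.0941 over its alternatives). Of 25 metalloproteinase and TIMP genes outside the 177, 4 were called higher and 3 lower, shares near those of all genes. TIMP2 differed by 3.70 (adjusted p = 0.00377, and 0.0777 at most, with the call lost without either GALNT3 KO array), MMP23B by 2.43, MMP10 by -2.29 and MMP3 by -1.60.

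Measured with the brightest probe of each gene in a limma fit across 27221 genes, 127 of the 177 passed an adjusted p of 0.05 as higher in GALNT3 KO, where 4.69% of all genes did, and 0 as lower, where 6.33% did. As lower in GALNT3/T6 KO, 159 passed, where 23.1% of all genes did, and 6 as higher, where 24.8% did. Between the groups, 159 passed as lower in GALNT3/T6 KO than in GALNT3 KO, where 11.9% of all genes did, and 0 as higher, where 11.8% did. Since the rule used the same contrasts, nothing is read from these counts. The 6 genes called higher in GALNT3/T6 KO were read by a brightest probe other than the one that met the rule (KMO, SDK2, HMCN2, EPHA8, HTR7P1 and TRAM1L1), with means from 0.28 to 0.70 in GALNT3/T6 KO.

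By position in hg19, 38 of 171 genes with coordinates (22.2%) lay within 500 kb of another of the set, against 7.89% of 24476 other genes; without the clustered histones it was 30 of 162 (18.5%). The closest pairs were TCF4 and HPGDS, each with a probe that has no gene symbol, 1.018 kb and 9.055 kb away. Such a probe counts as a gene of its own in these shares. Whether it reads the RNA of its neighbour was not tested. Other neighbours include S100A13 and S100A1, 12.99 kb apart, CXCL10 and ART3 (79.0 kb), and WFDC2 and WFDC10A (160 kb). Further apart were PTGS2 and PLA2G4A (316 kb) and LPPR5 and LPPR4 (394 kb). The share of genes with neighbours was not tested.

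The rule has a threshold, and genes on both sides of it have like values. On the rule's own scale the smallest of the 4 distances was 0.59 for MARK1, GPATCH2L and DNM1P46, just inside, and 0.58 for MUC4, SAG and a gene without a symbol, just outside.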

How the data were processed

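RNA from 4 A2780s clones labelled as knockouts was compared with Ctrl RNA on 4 Agilent 2-colour arrays. The deposited scanner files hold spot intensity in both channels, and the deposited value table holds log10 ratios, which match the scanner's own LogRatio to within 0.005. The authors' Feature Extraction version is 8.5.1.1 in the submitters' processing notes and 10.7.3.1 per the file headers. Each array has 45015 spots, 1639 of them controls, which were left out. No spot was saturated, and the number of arrays limits the precision.

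The rule was applied to background-subtracted log2 ratios centred on the array median. For the values printed, intensities were corrected with normexp (offset 50) and normalized by loess within arrays (limma 3.58.1, R 4.3.3), and all genes were fitted in 1 model with Benjamini-Hochberg adjustment. The fit was tested on simulated data. Labels give clones as replicates, so p-values measure the spread between 2 arrays a group. A fold called "at least" sets the brighter group against the lowest signal well above background. The genes, lists and role groups were chosen with earlier results of these data known. Named with values are the 20 highest genes with a symbol by their smallest distance from 0 on the 4 arrays, HGF, TIMP1 and THSD7A, and up to 4 of each list; others were named for their role after their values were seen. Gene names are those of the array, 154 of 177 matched to RefSeq. Other normalizations, probe choices, filters and left-out arrays were tried.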

Additional observations from a re-analysis of the deposited data

Results flagged for a closer look

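The 177 genes differ between the 2 knockout groups by their choice. Each lies above Ctrl on both GALNT3 KO arrays and below it on both GALNT3/T6 KO arrays. The rule set this difference, and nothing is read from the limma counts for these genes. The medians of 4 gene lists also lay on opposite sides of 0 on both arrays of each group, but these lists hold some of the 177 genes, and the differences were not tested. The list median differed between GALNT3/T6 KO and GALNT3 KO by -0.628 for p53 targets, by -0.384 for clustered histones, by -0.083 for homeobox genes and by -0.0211 for polypeptide GalNAc-transferases. Without the genes among the 177 the differences were -0.628, -0.285, -0.071 and 0.0466, so that the sign turned for the GalNAc-transferases, whose medians were then 0.18 in GALNT3 KO and 0.10 in GALNT3/T6 KO.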

How the results depend on the processing

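The rule gave 54 genes without centring on the array median (45 shared with the 177), 54 at 2-fold on each array, and from 209 to 296 when 1 array was left out. A higher fold can only remove genes and a left-out array can only add them, so the direction of those changes was set in advance. Genes called higher in GALNT3 KO numbered 1277, but 547 with the array median in place of loess, 168 with the Feature Extraction log ratio and with the deposited value table, and from 0 to 4563 when 1 array was left out; without GALNT3 KO replicate 1 or 2 limma called 0, with 2417 and 1488 at an unadjusted p under 0.05. With 1 array left out, genes called higher in GALNT3/T6 KO than in GALNT3 KO numbered from 748 to 4534, and lower from 493 to 4708. With the replicate number as a block the calls were 30 higher in GALNT3 KO and 5133 lower in GALNT3/T6 KO. Between the groups they were 2526 higher and 2203 lower. Replicate deviations correlated at -0.24, and the numbers were not taken to pair the samples. This correlation alone cannot settle whether clones with the same number belong together. A crossed pairing, chosen after seeing the data, gave 1451, 6633, 3528 and 3780. KMO reversed in GALNT3/T6 KO with its brightest probe (0.28) and with the mean of all probes (0.0436), and NEBL with its brightest probe (0.0179). The cause was not tested. Of the other values for the named genes, 187 moved by no more than the SD between arrays and 118 by more. Leaving out an array cannot move a group's mean by more than that SD. A gene with a single probe cannot move with the choice of probe. The 187 thus hold values that could not have moved further, and nothing is read from these counts.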
